A study of Caenorhabditis elegans with 2 samples.

Results

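The microRNA (miRNA) genes of the nematode Caenorhabditis elegans were examined for binding by DMD-6, a transcription factor of the DM-domain family. All 261 genes of the biotype miRNA in the gene annotation of the assembly WBcel235 were taken. Genes within 1000 bp of each other on the same strand were merged, which left 227 loci, 18 of which held more than 1 gene. They belong to an annotation of 46890 genes on the nuclear chromosomes, of which 19973 are protein-coding. The window of a locus ran from 1000 bp before its start to 200 bp after it, and the locus had a peak when a peak summit fell in that window. The rule for the loci uses no measured value. The data are ChIP-seq, in which DNA bound by a protein is precipitated with an antibody and sequenced, and they come from a single condition, measured in 2 biological replicates. The worms were of strain RJP5356, in which dmd-6 carries rp168, a CRISPR insertion of GFP::AID::TEV::3xFLAG on chromosome IV, so that the tagged protein came from the gene's own locus. L4 larvae, the last larval stage, were collected whole at 48 hours after starvation at the L1 stage had brought them into step, and their sex was not recorded. Antibodies to GFP were used for the precipitation, although a separate label field names dmd-6. With whole animals, binding in few cells and weak binding in many cells cannot be told apart. With 1 group no test across samples was possible, so counts are given with exact binomial 95% intervals, which cover counting of loci or peaks only. The number of sequencing reads is unknown.

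A miRNA is a short RNA cut from a hairpin in a longer primary transcript, first by Drosha in the nucleus and then by Dicer in the cytoplasm. Loaded into an Argonaute protein, it pairs with messenger RNAs mainly through its seed, bases 2 to 8 counted from its 5′ end, and lowers their translation or stability. In C. elegans, miRNAs such as lin-4 and let-7 time the larval stages, and the mir-35 family acts in the embryo and in sex determination, while DM-domain proteins are best known for sex-specific development. The annotated start of a miRNA gene is in most cases the 5′ end of its hairpin and not the start of the primary transcript, which may lie further upstream.

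Mature sequences are printed for several of the families to which the results below refer, since members of 1 family share a seed. They were read 5′ to 3′ from the RefSeq copy of WBcel235, with the seed in capitals and the remaining bases in lower case. The mir-51 family, needed for embryonic development, shared the seed ACCCGUA in 6 of 6 members. It lies on the 5′ arm of the hairpin in mir-51, mir-52 and mir-53, and on the 3′ arm in the clustered mir-54, mir-55 and mir-56.
mir-51: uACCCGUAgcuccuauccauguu
mir-52: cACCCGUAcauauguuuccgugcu
mir-53: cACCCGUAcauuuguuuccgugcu
mir-54: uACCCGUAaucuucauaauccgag
mir-55: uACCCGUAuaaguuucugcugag
mir-56: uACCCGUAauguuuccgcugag

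The mir-58 family, abundant miRNAs related to Drosophila bantam, had the seed GAGAUCA in mir-80, mir-81 and mir-82 and GAGAUCG in mir-58.1.
mir-58.1: uGAGAUCGuucaguacggcaau
mir-80: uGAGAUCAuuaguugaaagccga
mir-81: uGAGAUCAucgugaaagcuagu
mir-82: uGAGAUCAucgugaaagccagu

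Of the let-7 family, which includes regulators of the passage between larval stages, 5 of the 7 members are printed; 4 share the seed GAGGUAG and mir-793 has GAGGUAU.
let-7: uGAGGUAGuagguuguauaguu
mir-48: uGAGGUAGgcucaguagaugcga
mir-84: uGAGGUAGuauguaauauuguaga
mir-241: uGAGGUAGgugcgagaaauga
mir-793: uGAGGUAUcuuaguuagacaga

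The last set holds mir-60, a miRNA of the intestine, mir-34, which is conserved to mammals and tied to stress responses, and 1 member each of the lin-4, mir-35 and mir-44 families. The seed of lin-4 is also that of mir-237, the seed of mir-35 was found in 8 of 8 family members, and that of mir-44 in 4 of the 6 miRNAs listed with it. In the mir-44 list, mir-42 carried the mir-35 seed and mir-43 carried neither.
mir-60: uAUUAUGCacauuuucuaguuca
mir-34: aGGCAGUGugguuagcugguug
lin-4: uCCCUGAGaccucaaguguga
mir-35: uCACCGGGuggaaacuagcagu
mir-44: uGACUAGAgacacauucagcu

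The DNA at the summit is shown for the 4 strongest peaks that lay outside every protein-coding start window. Each run holds the summit with 50 bp on either side, on the strand of the miRNA (the minus strand in all 4). Capitals mark matches to TGATAA or CACGTG, words that are counted further on. The summits lie in WBcel235 at X:13145339 for mir-54, mir-55 and mir-56, III:8865589 for mir-80, II:6328874 for mir-60 and IV:11027776 for mir-53. The first lies in an intron of F09A5.3, a protein-coding gene on the other strand, and the others lie between protein-coding genes.
mir-54/mir-55/mir-56: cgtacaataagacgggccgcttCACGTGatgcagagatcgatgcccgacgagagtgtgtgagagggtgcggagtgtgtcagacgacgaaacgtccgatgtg
mir-80: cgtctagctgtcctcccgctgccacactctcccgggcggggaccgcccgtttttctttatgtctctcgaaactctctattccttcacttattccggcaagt
mir-60: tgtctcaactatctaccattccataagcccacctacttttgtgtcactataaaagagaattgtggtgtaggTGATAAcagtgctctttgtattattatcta
mir-53: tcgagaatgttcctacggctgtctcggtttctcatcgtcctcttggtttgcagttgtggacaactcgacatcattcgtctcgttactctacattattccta

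Across all miRNA loci, a DMD-6 peak was about as frequent as across protein-coding genes. Of the 227 loci, 47 had a peak (20.7%, interval 15.63 to 26.56%), and these loci hold 52 of the 261 miRNA genes. Of all protein-coding genes, 19.1% had a peak in the same window at any of their start sites and 17.4% at the 5′ end of the gene. The miRNA share was thus near that of protein-coding genes. A window of this size held a summit at 7.88% of all genome positions, and at 10.05% of positions outside protein-coding genes. Both of these values lie below the interval of the miRNA share. The 47 loci held 56 pairs of a locus and a summit but 54 distinct summits, because the divergent genes mir-239.1 and mir-239.2 share both of their summits. Each summit is counted as a peak of its own, also where summits share an interval.

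Many of these peaks also lay in the window of a protein-coding start site. This was so for 21 of the 54 peaks at miRNA loci (38.89%), against 3801 of all 7338 peaks (51.8%). With shared peaks left out, 29 of 227 loci had a peak (12.78%, interval 8.73 to 17.83%), and for the other 18 loci the miRNA and the neighbouring gene cannot be told apart. Counted the same way, 18 of the 54 peaks lay in the window of a non-coding gene other than a miRNA, 3 of them among the 21. A further 18 lay in no window of a protein-coding or other non-coding gene, with pseudogenes left out of the count. None lay within 200 bp of a tRNA gene. These overlaps with non-coding genes were not counted over all 7338 peaks, so whether other peaks differ is unknown. Peaks were found at 26 of 132 loci between protein-coding genes, at 17 of 71 loci inside or overlapping such a gene on the same strand, and at 4 of 24 on the other strand. By chromosome the loci with a peak numbered 4 of 33 on I, 9 of 41 on II, 8 of 23 on III, 11 of 47 on IV, 4 of 25 on V and 11 of 58 on X. The intervals of the 6 chromosomes overlap, from 12.12% on I (3.40 to 28.2%) to 34.78% on III (16.38 to 57.27%).

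The low-numbered miRNAs, which were named in the earliest cloning studies and include most of the abundant families, had peaks more often than the later ones. This split by number was made after the values were seen, with a merged locus placed by its lowest number, and it is a description. Of the loci with a number from mir-1 to mir-90, 21 of 43 had a peak (48.84%, interval 33.31 to 64.54%). From mir-124 to mir-392 the count was 9 of 55 (16.36%, interval 7.77 to 28.8%), and from mir-784 to mir-8212 it was 16 of 124 (12.9%, interval 7.56 to 20.11%). Among the 5 loci without a mir number, including let-7, lin-4 and lsy-6, the count was 1. Outside protein-coding windows, 18 of 43 low-numbered loci kept a peak (41.86%), against 6 of 55 (10.91%) and 4 of 124 (3.23%) in the later groups. Among loci between protein-coding genes alone, the counts were 14 of 27, 6 of 39 and 6 of 64. With only peaks found in both replicates they were 16 of 43, 6 of 55 and 11 of 124.

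**Figure D1:**
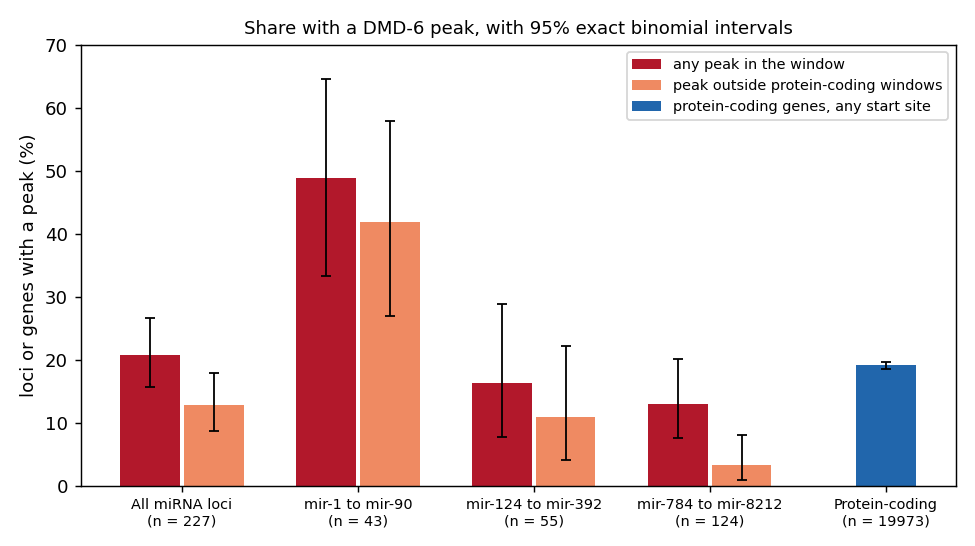
Share of miRNA loci with a DMD-6 peak, in percent, for all loci and for 3 ranges of the number in the name, beside protein-coding genes; bars give the share with any peak or with a peak outside protein-coding windows, and error bars are exact binomial 95% intervals. The mir-1 to mir-90 loci stand at 48.84%, while all miRNA loci at 20.7% and protein-coding genes at 19.1% lie close together.

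The strongest peaks at miRNA loci include peaks inside and outside the windows of protein-coding starts. The signal is the authors' value for a peak, used only to rank peaks within a list, and ranks run from 1 for the strongest of 7338. Of the 12 loci with the highest signal, 6 had a peak outside protein-coding windows, though 4 of these peaks, at the mir-54 cluster, mir-60, mir-52 and mir-2214, lay in the window of another non-coding gene. The strongest of these lay upstream of the mir-54, mir-55 and mir-56 cluster (X:13144691-13145094, minus strand). It spanned X:13145138-13145528 with its summit 245 bp upstream, a signal of 528.6 and rank 277, and it had a signal of 317.2 in replicate 1 and 204.3 in replicate 2. The antisense miRNA gene F09A5.15, which overlaps this cluster, had a peak of its own 314 bp upstream of its start on the other side, with a signal of 189.5. Next came mir-80 of the mir-58 family (III:8865270-8865367, minus strand), with a peak at III:8865400-8865779, its summit 222 bp upstream, a signal of 456.5 and rank 429. Its signal was 249.5 in replicate 1 and 217.8 in replicate 2.

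The intestinal mir-60 (II:6328702-6328799, minus strand) had a peak over II:6328751-6329021 with a signal of 347.9 and rank 831. Its summit lay 75 bp upstream of the hairpin, and its signal was 204.8 in replicate 1 and 135.2 in replicate 2. Both mir-53 and mir-52, of the mir-51 family, lie on chromosome IV between protein-coding genes. At mir-53 (IV:11027593-11027691, minus strand) the peak IV:11027680-11027912 had a signal of 340.1 and rank 875, a summit 85 bp upstream, and signals of 213.6 in replicate 1 and 121.1 in replicate 2. At mir-52 (IV:14034008-14034107, plus strand) the stronger of 2 peaks, IV:14033112-14033492, had a signal of 296.0 and rank 1167 at 725 bp upstream, and signals of 168.5 in replicate 1 and 137.8 in replicate 2. Its weaker peak, at 223 bp upstream, had a signal of 156.2. The last of the 6, mir-2214 (III:7278715-7278778, plus strand), lies in a gene of the same strand, B0361.11. Its peak III:7278588-7278781 had a summit 35 bp upstream, a signal of 263.4 and rank 1455, and signals of 139.2 in replicate 1 and 122.9 in replicate 2.

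The other 6 shared their peak with protein-coding start sites. The highest signal at any miRNA locus, 759.5 (rank 78), was that of mir-4929 (II:13461755-13461864, minus strand), inside E01G4.3. Its peak II:13461994-13462528 had the summit 347 bp upstream in an intron, with signals of 404.8 in replicate 1 and 348.1 in replicate 2. For mir-5592.1 (X:13759245-13759308, minus strand), the peak X:13760107-13760364 lay 936 bp upstream, in the window of cest-13. Its signal was 623.4 (rank 151), with 416.4 in replicate 1 and 216.0 in replicate 2. The peak of mir-77 (II:12519268-12519367, plus strand), at II:12518876-12519266, also lay in the windows of ceh-99, srh-70 and a small nucleolar RNA. Its summit was 252 bp upstream, its signal 614.0 (rank 163), and its signals 343.8 in replicate 1 and 263.1 in replicate 2.

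A further 3 of the 12 lay beside genes of transport, translation or DNA replication. At mir-70 (V:6665536-6665635, minus strand) the peak V:6665803-6666076 lay in the window of its host pmp-5, a gene for an ABC transporter related to peroxisomal membrane proteins. Its summit lay 290 bp upstream, with a signal of 399.8 (rank 602), 243.6 in replicate 1 and 153.5 in replicate 2. The summit of mir-5549 (III:6971976-6972085, minus strand) was at the start itself, at a distance of 0 bp, in the windows of eef-1A.1, which encodes a translation elongation factor, and rfc-4, which encodes a replication factor C subunit. That peak, III:6971977-6972182, had a signal of 379.5 (rank 694), 231.2 in replicate 1 and 146.6 in replicate 2. The peak of mir-354 (I:14468382-14468491, minus strand), I:14469250-14469435, lay 851 bp upstream near rps-20, a ribosomal protein gene, and ekl-4. Its signal was 345.2 (rank 849), with 176.9 in replicate 1 and 168.3 in replicate 2.

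**Figure D2:**
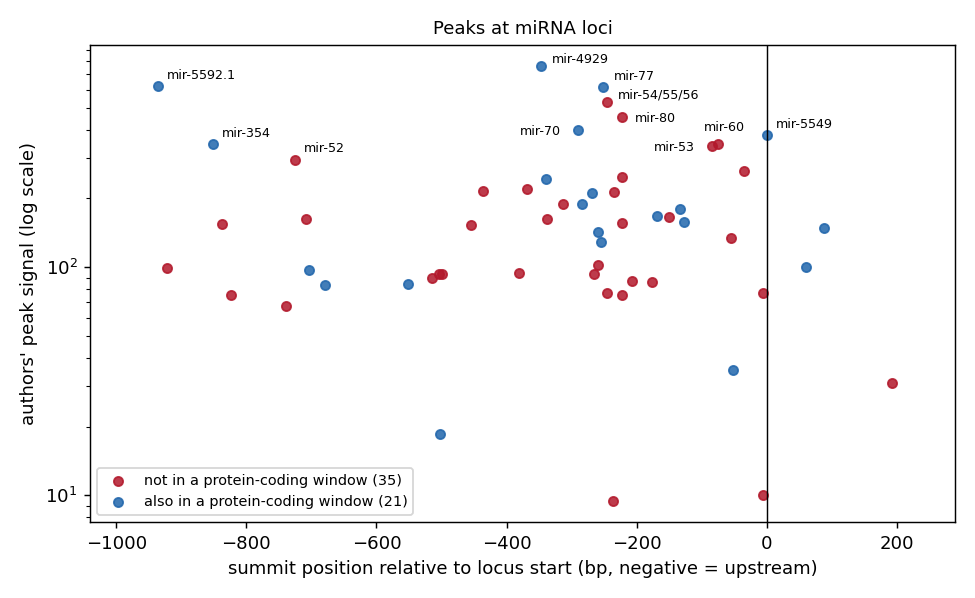
The authors' peak signal (log scale) against the position of the summit relative to the start of the miRNA locus in bp, for the 56 pairs of a locus and a summit; colours separate the 35 pairs outside protein-coding windows from the 21 inside one. Points gather upstream, 38 of them between 50 and 550 bp from the start, and the strong peaks of mir-54/55/56, mir-80, mir-60 and mir-53 lie outside protein-coding windows.

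The remaining 35 loci had weaker peaks. In falling order of signal, 248.2 to 129.0, they were mir-83, mir-8186.2, the cluster of mir-229, mir-64, mir-65 and mir-66, then mir-58.1, mir-238, mir-5551, F09A5.15, mir-253, mir-5595, mir-82, mir-75, mir-239.1, mir-239.2, mir-270, mir-243, mir-241, mir-4936, mir-2216, mir-63 and mir-4920. From 102.0 down to 67.26 they were mir-79, mir-8192, mir-5553, mir-2210, mir-260, mir-34, mir-90, mir-47, mir-48, mir-72, mir-51, mir-5550, mir-794, mir-2 and mir-1020. Some lie close together: mir-80, mir-238 and mir-90, all on the minus strand of chromosome III with starts at 8865367, 8867425 and 8874084, each had a summit of its own at 222, 235 and 265 bp upstream. There were 9 loci with 2 summits, among them mir-4929, mir-77, mir-58.1 and mir-72. The weaker summit had a signal as low as 9.47, in mir-58.1, where the stronger one had 216.0.

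Seed families differed in how many of their members had a peak. The mir-51 family had a peak at 6 of 6 genes, in 4 loci, each outside protein-coding windows. At mir-51, mir-52 and the mir-54 cluster, though not at mir-53, the peaks also lay in the window of another non-coding gene. The weakest, at mir-51 itself (summit 176 bp upstream, signal 85.94), was found in neither replicate alone, so that 5 of 6 remained in the list of either replicate. The mir-64 family had a peak at 5 of 5 genes in 2 loci, also outside protein-coding windows and in both replicates. At the cluster of mir-229, mir-64, mir-65 and mir-66, inside gcn-1, the summit lay 369 bp upstream with a signal of 220.8, 117.5 in replicate 1 and 105.2 in replicate 2. At mir-63 it lay 55 bp upstream with a signal of 133.6, 76.52 in replicate 1 and 57.9 in replicate 2. Genes of a cluster share 1 peak, so they do not count as separate observations.

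In the mir-58 family 3 of 4 members had a peak. Beside mir-80, these were mir-58.1 (summit 436 bp upstream, signal 216.0) and mir-82 (169 bp upstream, signal 167.3, shared with gid-2). The member without one, mir-81, lies on the other strand of gid-2, and no summit was found within 3000 bp upstream of it. Its mature sequence, printed above, shares its seed with mir-80 and mir-82. The 3 peaks named here for mir-80, mir-58.1 and mir-82 were found in both replicates. A second, weak summit of mir-58.1 (signal 9.47) was matched to the same replicate peaks as its stronger neighbour.

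The let-7 family had a peak at 3 of 7 members. The neighbours mir-48 and mir-241, which with mir-84 repress hbl-1 at the passage from the L2 to the L3 stage, had summits 515 and 455 bp upstream. Their signals were 89.72 and 153.3, and both peaks were found in both replicates, with 47.99 and 78.56 in replicate 1 and 48.84 and 77.56 in replicate 2. The peak of mir-794 (signal 77.28, 6 bp upstream) was found in replicate 1 only and was absent from the authors' conservative list. No peak was found in the windows of let-7, mir-84, mir-793 or mir-795.

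The result for let-7, which controls the passage from larva to adult and represses lin-41, depends on where its start is placed. It is 1 of 7 miRNA loci whose annotated gene begins away from the hairpin, here 1050 bp upstream of it (gene start X:14745321, hairpin start X:14744271). Measured from the hairpin, as for most other loci, a weak summit lay 446 bp upstream (X:14744545-14744888, signal 85.0, rank 5904), in neither replicate's own list. This measure was added after the data were seen, and with it 48 loci had a peak. A far stronger peak, X:14747061-14747287, lay 1852 bp upstream of the gene start, with a signal of 410.5, 221.6 in replicate 1 and 186.0 in replicate 2, and in the window of the protein-coding gene wshc-2.

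Several named miRNAs without a peak in the window had summits further upstream. The nearest summit upstream of mir-84 lay at 2287 bp (signal 386.5). That of the mir-35 cluster lay at 2599 bp (signal 349.7), in the window of the protein-coding gene Y62F5A.12. The one of mir-237, the relative of lin-4, lay at 1469 bp and was weaker than the median peak (signal 105.7). Upstream of mir-71, which promotes long life, 3 summits of 1 broad interval lay at 1377, 1639 and 1842 bp with signals of 260.5, 210.2 and 139.3, and a separate, stronger one lay at 2964 bp (signal 426.9). Some loci with a weak peak had a stronger one farther out: mir-34 had 93.58 at 499 bp and 412.9 at 1819 bp, and mir-63 had 133.6 at 55 bp and 358.5 at 1449 bp. The farther summit of mir-63 lay in the window of the protein-coding gene lec-9. The peak of mir-34 within its own window was found in replicate 1 only and was absent from the conservative list. The conservative list held a peak at mir-71 instead.

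**Figure D3:**
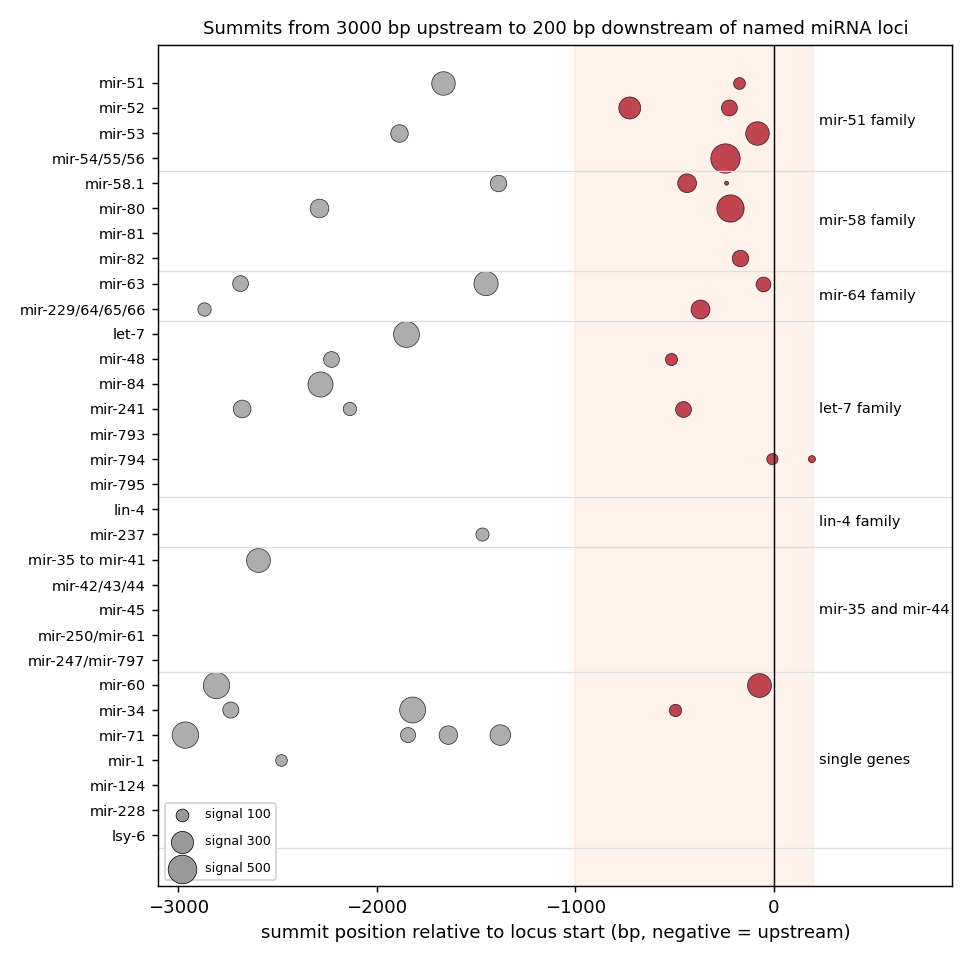
Position of every summit from 3000 bp upstream to 200 bp downstream of the start of the named miRNA loci, in bp; point area grows with the authors' signal, red points lie in the window (shaded) and grey points outside it. Each row of the mir-51 and mir-64 families has a red point, while lin-4, the mir-35 and mir-44 families, mir-1, mir-124, mir-228 and lsy-6 have none.

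No peak was found at the lin-4 family (0 of 2), which represses lin-14 in early larvae, the mir-35 family (0 of 8) or the mir-44 list (0 of 6). The genes of the mir-35 family lie in 2 loci and those of the mir-44 list in 4, and the locus of mir-42 belongs to both. Of the 7 miRNAs named singly, mir-60 and mir-34 had a peak. The others were lsy-6, which sets left-right asymmetry in a pair of taste neurons, the muscle miRNA mir-1, the neuronal mir-124, mir-71 and mir-228. Across these lists 19 of 44 genes had a peak, in 14 of 31 loci, since clustered genes share 1 peak. Of all miRNA genes it was 52 of 261 (19.92%), and of all loci 47 of 227 (20.7%). The lists were chosen with earlier results of these data known, so the count is a description. A count of 0 in a thresholded list does not show that binding is absent. Of the 180 loci without a peak, 54 had an entry in the ranked list, which holds 37765 peaks before any threshold on the irreproducible discovery rate (IDR), the measure of how well ranks hold between replicates. With a threshold of 2 on its −log10, mir-124 came to 1.995, mir-392 to 1.877, mir-8209 to 1.71, mir-8210 to 1.69 and mir-71 to 1.634, while lin-4 reached 0.838 and let-7, lsy-6, mir-1 and mir-228 had no entry.

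The window's edges also decided some calls. Just inside the upstream edge lay the summits of mir-5592.1 at 936 bp (signal 623.4) and mir-5553 at 922 bp (99.46), and just outside it those upstream of mir-353 at 1043 bp (163.1) and mir-238 at 1062 bp (397.8). On the downstream side, mir-4936 at 88 bp (148.7) and mir-794 at 193 bp (30.94) were inside. The summits at 237 bp from mir-2215 (216.2) and 250 bp from mir-784 (272.2) were outside. Of these, mir-238 and mir-794 had another summit in the window.

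Summits at miRNA loci were densest from 400 to 200 bp upstream of the start. Of the 56 pairs, 52 were upstream of it (92.86%, interval 82.71 to 98.02%), but 83.3% of the window lies upstream by definition, and the interval holds that value. Their median position was 259 bp upstream, with a range from 936 bp upstream to 193 bp downstream. Counted in steps of 200 bp over all 227 loci, the step from 400 to 200 bp upstream held the most summits, 10.13 per 100 loci, the step next to the start held 5.29, and the first step downstream held 1.76. Protein-coding genes had 4.35 and 7.32 summits per 100 genes in these steps, so their highest step was the one next to the start. Since most miRNA starts are hairpin ends, the scales of distance are not the same for both kinds of gene. The mir-1 to mir-90 loci alone had 27.91 and 18.6 summits per 100 loci in these steps.

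**Figure D4:**
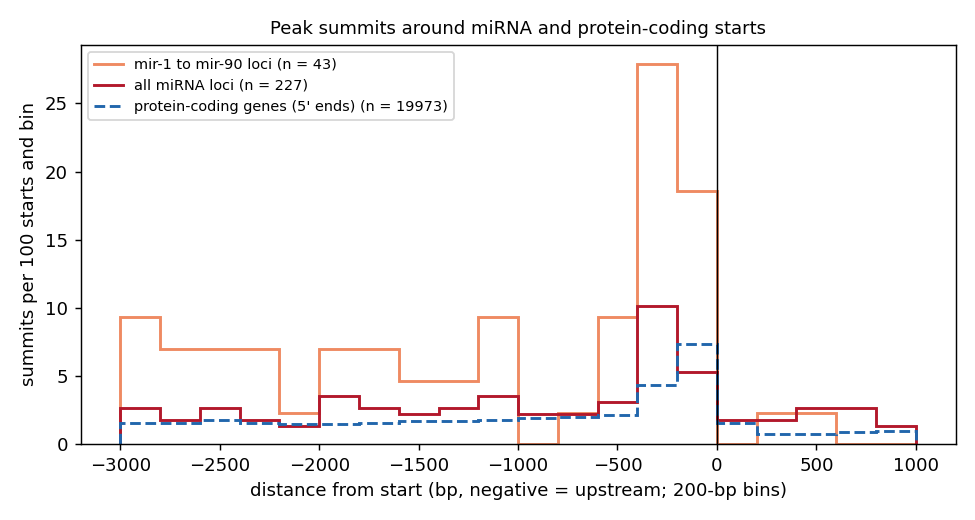
Summits per 100 starts in 200-bp steps, against distance from the start in bp (negative is upstream), for the 43 mir-1 to mir-90 loci, all 227 miRNA loci and the 5′ ends of 19973 protein-coding genes. All miRNA loci peak from 400 to 200 bp upstream at 10.13, and protein-coding genes in the 200 bp next to the start at 7.32.

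The replicates shared most of these peaks. Of the 54 peaks at miRNA loci, 38 overlapped a peak of both replicates by at least 1 bp (70.37%, interval 56.39 to 82.02%), against 58.5% of all peaks. The interval holds the share of all peaks. With an overlap of at least 50% of the length, the miRNA share was 61.11% (33 of 54). Other settings ran from 60.61% (20 of 33, outside protein-coding windows) to 78.72% (37 of 47, conservative list). The share of all peaks was not counted in these settings. Replicate 1, whose list is the longer with 6533 peaks, held 51 of the 54, and replicate 2, with 4653, held 38. The 3 found in neither were those of mir-51, mir-2 and mir-1020. Where 2 summits share 1 interval or overlap, as in mir-4929 and mir-58.1, both were matched to the same replicate peak, so a weak summit can count as found through its stronger neighbour.

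Peaks at miRNA loci were spread from weak to strong, and the strongest of them ranked 78 of 7338. The lowest signal was 9.47, the median 154.3 (order-statistic interval 99.46 to 188.9) and the highest 759.5, against 3.08, 140.9 and 1634 for all 7338 peaks. Of the 54, 16 had a signal at or under the 25th percentile of all peaks, 14 one over the 75th percentile, and 24 lay between these. Peaks found in both replicates had a median of 189.2, and the 16 others had 86.27. In the list of replicate 1 the matched peaks had a median of 105.0 (41.85 to 416.4), against 95.94 for all its peaks, and in replicate 2 a median of 90.69 (42.7 to 348.1), against 79.61. The interval of the median holds the value of all peaks, so miRNA loci did not stand apart in signal by this measure.

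**Figure D5:**
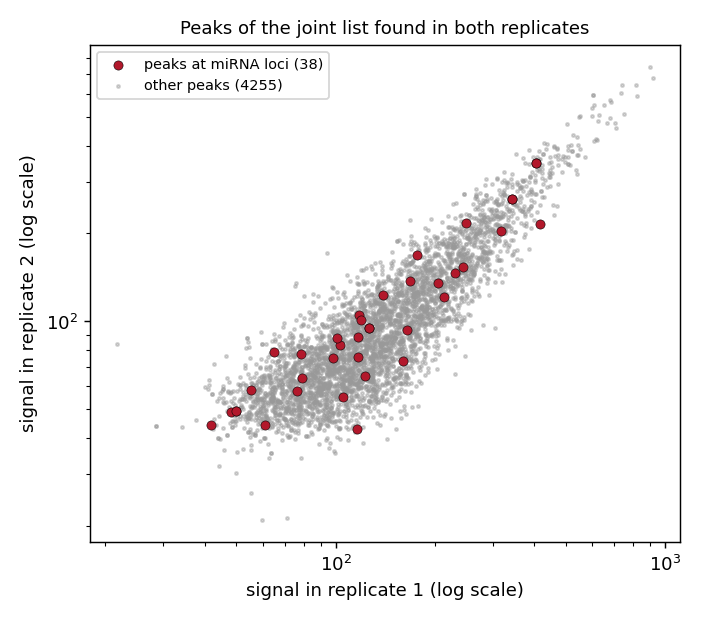
The authors' peak signal in replicate 2 against that in replicate 1 (both log scales, each on the scale of its own list) for peaks of the joint list found in both; red points are the 38 peaks at miRNA loci and grey points the 4255 other peaks. The red points spread along the cloud of grey ones, from 41.85 to 416.4 in replicate 1.

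Short words were counted on both strands of each summit window, 50 bp to either side. TGATAA, a word bound by GATA factors such as the intestinal ELT-2, was in 12 of 54 windows at miRNA loci (22.22%, interval 12.04 to 35.6%), against 31.4% of all windows. One of these is the mir-60 window printed above. ACATTGT, a core of the sites of DM-domain proteins, was in 2 of 54 (3.70%, interval 0.45 to 12.75%), against 1.87% of all. CACGTG, an E-box, was in 2 of 54 (3.70%), against 6.88%, and the mir-54, mir-55 and mir-56 window printed above is one. GAGAGAG was in 6 of 54 (11.11%, interval 4.19 to 22.63%), against 8.39%. No word contains another. Each interval holds the share of all windows, and a match is a description of letters and not of a bound site. The mir-80 and mir-53 windows held none of the 4 words.

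Genes that make miRNAs or work with them, and genes known as their targets, were counted in lists. Of 18 annotated genes of biogenesis and function, 9 had a peak, against 19.1% of all protein-coding genes. These lists were chosen with earlier results of these data known, so the count is a description. The miRNA Argonautes alg-1 (signal 168.6) and alg-2 (208.1) had a peak and the miRNA Argonaute alg-5 had none. A peak was found at ain-1 (545.6), which encodes a GW182-type effector. Among other effectors, nhl-2 (1382), cgh-1 (394.8), ifet-1 (943.2), vig-1 (497.1) and tsn-1 (159.3) had one. A peak was also found at lin-28 (241.7), whose protein blocks let-7 processing. The peaks of nhl-2, ifet-1 and tsn-1 also lay in windows of tag-340, rps-3A and F10G7.9. All 9 peaks were found in both replicates.

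The cutting enzymes and the exonucleases had none. No peak was found at drsh-1 (Drosha), pash-1 (its partner), dcr-1 (Dicer), ain-2, the exonucleases xrn-1 and xrn-2, paxt-1 or pup-2, and the symbols ntl-1 and pan-3 were not matched. Of 17 target genes, 5 had a peak, against the 19.1% of all protein-coding genes given above: lin-14 (129.2), a target of lin-4, then lin-28, vav-1 (157.0), a target of mir-61, then mef-2 (103.7), a target of mir-1 in muscle, and nhl-2. The peaks of lin-14 and mef-2 were not found in both replicates. No peak was found at lin-41, hbl-1, daf-12, lin-42, cog-1, die-1, egl-1, let-60, lin-3, sup-26, cdc-25.2 or dbl-1. Over both lists, 12 of 33 annotated genes had a peak, and no test of these counts was made.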

How the data were processed

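The files are 8 peak lists on ce11, the same assembly as WBcel235, per the labels: each replicate has a thresholded list and a ranked one, and both replicates together have 2 of each kind. The deposited score column is the authors' peak score and was not used to rank. The deposited signal is the authors' value per peak; its formula is not stated. For the aligner and peak caller no name was given in the sources used here. The −log10 of the global IDR is a deposited column of the ranked lists, in which 8 further columns were not used. A summit was placed at the peak start plus the deposited offset. The labels name a control experiment, not used here.

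The main list was the larger thresholded joint list (7338 peaks in 7305 distinct intervals). The ranked list held 45 further peaks past its threshold that are absent from the main list, 0 of them at a miRNA locus. Genes came from Ensembl release 115 and sequences and symbols from RefSeq; all 261 gene IDs were matched. Python 3.11.15 with pandas 2.3.3, numpy 2.4.6 and SciPy 1.17.1 was used, and the window search was tested on simulated data. No test across samples or set test was run; the labels give 1 group of 2 biological replicates, and depth in reads is unknown.

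The loci named in full are the 12 with the highest signal, and all others with a peak are named; families, target and effector lists, words and window edges are named whatever their values. The rule for the members uses no measured value, but the members and lists were chosen with earlier results of these data known. The alternatives were the conservative list, each replicate alone, peaks in both replicates, the 1000 strongest peaks, no threshold, other windows, other merging, shared windows, wider word windows and, added after seeing the data, hairpin starts. The mature sequences of the mir-64 family are not reported here.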

Additional observations from a re-analysis of the deposited data

How the results depend on the processing

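Of 39 alternative values, 34 stayed near the reported one (the share of loci and counts within 1.5 times, other shares and medians within their interval) and 5 moved. The 47 miRNA loci with a peak (20.7%) became 29 (12.78%) with summits in protein-coding windows left out. They became 10 (4.41%) with only the 1000 strongest peaks, against 3.17% of protein-coding genes. With no IDR threshold the share of loci was 44.49%, against 40.62% of protein-coding genes. The 12 effector and target genes with a peak became 19 with a window reaching 2000 bp upstream. Of all protein-coding genes, the share with a peak then rose from 19.1% to 24.12%. The share of TGATAA windows moved to 40.74% with 100 bp in place of 50 bp to either side of the summit, against 44.6% of all windows. Each follows from the construction, which admits fewer or more peaks or letters. Leaving out replicate 1 gave 36 loci (15.86%, against 13.01% of protein-coding genes), and leaving out replicate 2 gave 46 (20.26%, against 18.24%). Peaks of both replicates gave 34 (14.98%, against 11.98%). The conservative list gave 43 (18.94%, against 17.68% of protein-coding genes). Windows from 500 bp upstream to 100 bp downstream gave 38 (16.74%, against 15.0%), and to 2000 bp upstream 62 (27.31%, against 24.12%). Any part of a peak gave 51, unmerged genes 51 of 261, merging within 10 kb 40 of 209, and hairpin starts 48. The ranges by number cover 9 alternatives and exclude the 1000 strongest peaks and the unthresholded list. Other merging and hairpin starts were not counted by number. The mir-1 to mir-90 share ranged from 37.21 to 55.81%. The mir-124 to mir-392 share ranged from 10.91 to 25.45% and the mir-784 to mir-8212 share from 3.23 to 17.74%. No paired analysis was possible because the series has 1 group. Read depth is unknown, so a locus without a peak cannot be given a detection limit.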
